A study of Homo sapiens with 4 samples.

Results

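The genes described here are the measured members of a list of 41 genes of the TGF-beta, activin and BMP pathway: ligands, latency and processing proteins, receptors, SMADs, inhibitors and targets. Members were the listed genes whose symbol stood on a row of the table with at least 0.5 FPKM (fragments scaled by transcript length and by sequencing depth) in at least 2 libraries. Of the 41 genes, 40 had a row, 7 of these lay below the limit, and 33 were tested among the 13291 rows that passed it, out of 59108 rows in all. The remaining listed gene was not analysed here.

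RNA was sequenced from B-CPAP cells, a cell line from papillary thyroid carcinoma, in 2 libraries of cells with an shRNA against LDHA (shLDHA, the LDHA knockdown cells) and 2 libraries of cells with an shRNA against GFP (shGFP, the control cells). The methods describe lentiviral LDHA knockdown vectors and selection of infected cells with puromycin, all in 1 line with no time point in the labels. The comparison asks how the transcriptome of these cells differed once LDHA, the A subunit of lactate dehydrogenase, was depleted. The labels do not say whether libraries of a group came from separate cultures or whether the shLDHA libraries carry different hairpins, so every p-value reflects the variation among these 4 libraries alone, and that variation may be technical.

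Ligands of the TGF-beta and activin branch bind a type II receptor kinase, which activates a type I receptor that phosphorylates SMAD2 and SMAD3, whereas BMPs signal through SMAD1 and SMAD5, and both branches share SMAD4. TGF-beta is secreted in a latent complex that LTBP proteins anchor in the matrix, and the pathway is held in check by inhibitory SMADs, ubiquitin ligases and the corepressors SKI and SKIL, several of which are themselves induced by the signal. In thyroid follicular cells TGF-beta is known as an inhibitor of growth and as an inducer of epithelial-mesenchymal transition.

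LDHA was lower in both shLDHA libraries, at 176 and 168 FPKM, against 1186 and 1183 FPKM in the shGFP libraries. Its log2 fold change (shLDHA over shGFP, on FPKM + 0.1) was -2.44 (standard error 0.08, limma adjusted p = 0.0076, Benjamini-Hochberg over all tested rows), and without shGFP library 1 or 2 it was -2.45 and -2.44 (adjusted p = 0.145 and 0.130). The depth estimated from the steps of the low FPKM was 18400000 and 26800000 fragments in the shLDHA libraries and 21200000 and 22300000 in the shGFP libraries. The deposited FPKM of the tested rows had a median log2 difference of -0.33 between the groups. Scaling by a trimmed mean of M values (TMM) moved this median to -0.0040, and fold changes are given after this scaling, relative to that shift, unless called deposited. Among thyroid follicular markers, PAX8 and FOXE1 reached 0.5 FPKM in 2 libraries, as did 3 of 5 epithelial markers (KRT7, KRT8 and KRT18), while TSHR and NKX2-1 were at 0 in all 4 libraries and TG and SLC5A5 stayed below 0.5 FPKM. Markers of other cells were sparse: 2 of 6 fibroblast markers (PDGFRB and COL1A1), 0 of 4 endothelial markers and 1 of 4 leukocyte markers (CD68) reached 0.5 FPKM in 2 libraries, with PTPRC and CD3E at 0. The fibroblast markers summed to 9.48 to 9.83 FPKM in the shLDHA libraries and 17.1 to 18.1 FPKM in the shGFP libraries. Most of this was PDGFRB, at 8.41 and 6.57 FPKM in the shLDHA libraries, against 15.24 and 16.95 FPKM in the shGFP libraries. COL1A1 overlapped, at 0.78 and 3.12 against 1.82 and 1.09 FPKM. Leukocyte markers summed to 34.2 to 45.3 FPKM in the shLDHA libraries and 30.0 to 30.4 FPKM in the shGFP libraries, nearly all of it CD68. The part of such cells in the values below was not tested.

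In LDHA knockdown cells, mRNAs of the negative regulators SMURF2, SKI and SMAD7 were lower, as were those of the type II receptor TGFBR2. Those of the targets TGFBI and ID3 were lower too. The latency proteins LTBP4 and LTBP3 were higher after TMM scaling, but neither passed as deposited or after rescaling to an equal total per library. In those settings the median of all rows was itself -0.33 and -0.50. Among the 33 tested genes, 2 rose (6.06%) and 7 fell (21.2%) at a limma adjusted p under 0.05, where 18.1% of all tested rows rose and 12.9% fell, 31% in all. SKIL is counted among the 7 although it passed the limit on low values only through its shGFP libraries, and it did not pass the test without that limit (adjusted p = 0.071). SMAD7 and SKI did not pass without that limit either (adjusted p = 0.062 and 0.076). Without a variance trend in limma, SMAD7, SKI, ID3 and LTBP3 did not pass (adjusted p = 0.052, 0.074, 0.058 and 0.055). The other 24 did not pass. The median log2 fold change of the 33 genes was -0.40, against -0.0040 over all tested rows, and 26 of the 33 estimates were below 0. Of the 33 genes, 18 lie in the 3 longest deciles of transcript length. In those deciles the median of all rows was -0.34, and 19.6% fell and 6.3% rose. After offsets for length the median was -0.31 for the 33 genes and -0.035 for all rows with a length. After scaling, both shLDHA libraries lay below both shGFP libraries for 21 of the 33 genes (36.1% of all rows) and above both for 6 (36.4% of all rows). In bulk RNA, a lower share of cells that express a gene and less RNA per cell cannot be told apart. Each call rests on both shGFP libraries: without shGFP library 1 or 2, limma called 0 rows, with 3419 and 3696 rows at an unadjusted p under 0.05, 7 and 9 of them pathway members.

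**Figure D1:**
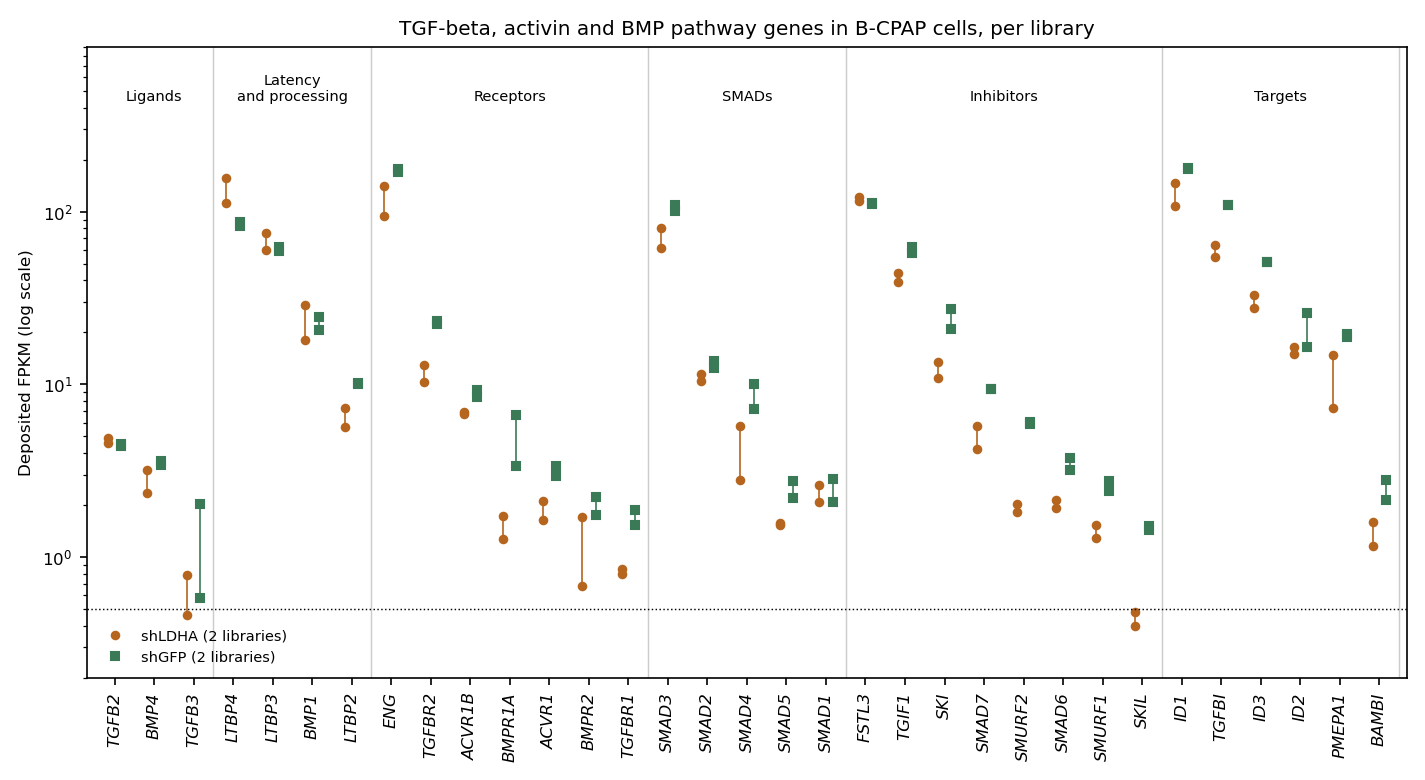
Deposited FPKM of the 33 tested pathway genes on a log axis, grouped by role and ordered by level within a role, with 1 point per library (circles: the 2 shLDHA libraries, squares: the 2 shGFP libraries) joined by a line within each group; the dotted line is the limit of 0.5 FPKM. Levels run from below 0.5 FPKM for SKIL in the shLDHA libraries to 179 FPKM for ID1 in an shGFP library, and the shLDHA points lie below the shGFP points for 25 of the 33 genes as deposited (52.8% of all tested rows did so).

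The 3 ligands of the list that were tested stood below 5 FPKM in every library and did not pass the test. TGFB2, the most abundant of these 3, stood at 4.92 and 4.59 FPKM in the shLDHA libraries, against 4.40 and 4.52 FPKM in the shGFP libraries. Its groups did not overlap, but its log2 fold change of 0.42 (standard error 0.13) had an adjusted p of 0.071. BMP4, a BMP ligand, gave -0.01 (95% interval -0.46 to 0.43, adjusted p = 0.958). TGFB3 had 0.46 and 0.79 FPKM in the shLDHA libraries, against 0.58 and 2.02 FPKM in the shGFP libraries, and its groups overlapped. Without shGFP library 2 the estimate of TGFB3 was 0.35 in place of -0.46. INHBA and INHBB, the genes of the activin beta subunits, had at most 0.31 FPKM in any library, and BMP2 at most 0.02 FPKM, so none was tested. The depth behind these values was low for TGFB3, with an estimated 27 and 67 fragments in the shLDHA libraries and 39 and 142 in the shGFP libraries, while TGFB2 had at least 506 fragments in each library.

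The latency proteins divided by gene. LTBP4, which binds latent TGF-beta in the matrix, stood at 156 and 112 FPKM in the shLDHA libraries, against 86.9 and 82.9 FPKM in the shGFP libraries. Both shLDHA libraries were above both shGFP libraries, and after scaling the means were 149 ± 20.1 FPKM in LDHA knockdown cells and 75.4 ± 2.02 FPKM in control cells (SD, n = 2 each). LTBP4 rose by a log2 fold change of 0.98 (standard error 0.11, adjusted p = 0.011), a 1.97-fold difference, and it was 0.64 as deposited (adjusted p = 0.057). LTBP3, a second protein that binds latent TGF-beta, had 75.1 and 59.8 FPKM in the shLDHA libraries, against 59.3 and 62.1 FPKM in the shGFP libraries. The deposited groups overlapped, and the scaled means were 75.5 ± 4.35 FPKM in LDHA knockdown cells and 53.9 ± 2.11 FPKM in control cells (SD, n = 2 each). LTBP3 rose by 0.48 (standard error 0.08, adjusted p = 0.021) after TMM scaling, while it was 0.14 as deposited (adjusted p = 0.490) and -0.036 after rescaling to an equal total per library (adjusted p = 0.877). LTBP2, a microfibril-associated member of the same family, gave -0.31 (standard error 0.11, adjusted p = 0.104), and BMP1, a protease that cleaves procollagens and the BMP antagonist chordin, gave 0.35 with overlapping groups (adjusted p = 0.224). LTBP1 had at most 0.52 FPKM and was not tested. Without shGFP library 1 or 2 the log2 fold changes of LTBP4 were 1.01 and 0.95 (adjusted p = 0.147 and 0.130) and those of LTBP3 0.44 and 0.52 (adjusted p = 0.188 and 0.152). On GRCh37, LTBP4 lies on chromosome 19 from 41098789 to 41135723 and LTBP3 on chromosome 11 from 65306030 to 65326401.

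Ratios of genes within a library do not depend on the scaling between libraries, and they are given as descriptions, chosen after the values were seen. The ratio of LTBP4 to LTBP2 was 21.5 and 19.6 in the shLDHA libraries, against 8.57 and 8.20 in the shGFP libraries. LTBP4 to LTBP3 gave 2.08 and 1.87 in the shLDHA libraries, against 1.47 and 1.33 in the shGFP libraries. Both ratios were higher in both shLDHA libraries, with no overlap between the groups.

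All 7 receptors tested had estimates below 0, from -1.29 to -0.03, and 1 of them, TGFBR2, fell (14.3%, near the 12.9% of all rows that fell). TGFBR2, the type II receptor that binds TGF-beta, stood at 13.0 and 10.4 FPKM in the shLDHA libraries, against 23.3 and 22.3 FPKM in the shGFP libraries. The groups did not overlap and the scaled means were 13.1 ± 0.72 FPKM in LDHA knockdown cells and 20.2 ± 0.48 FPKM in control cells (SD, n = 2 each). Its log2 fold change was -0.63 (standard error 0.09, adjusted p = 0.016), which is 1.55-fold lower, and without shGFP library 1 or 2 it was -0.61 and -0.65 (adjusted p = 0.165 and 0.143). TGFBR1, the type I receptor of TGF-beta, had 0.80 and 0.85 FPKM in the shLDHA libraries, against 1.53 and 1.87 FPKM in the shGFP libraries. Both shLDHA libraries were below both shGFP libraries, but the log2 fold change of -0.64 (95% interval -1.33 to 0.05) did not pass at an adjusted p of 0.124. As deposited TGFBR1 gave -0.95 (adjusted p = 0.051), and rescaled to an equal total per library it gave -1.12 (adjusted p = 0.030). These levels correspond to an estimated 92 to 142 fragments in the shLDHA libraries and 202 to 259 in the shGFP libraries. The ratio of TGFBR2 to TGFBR1 overlapped, at 16.2 and 12.2 in the shLDHA libraries, against 15.2 and 11.9 in the shGFP libraries.

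The study's qPCR primers for these receptors are shown because they say which part of each transcript a separate assay would read, with positions on GRCh37 and GENCODE version 44.
TGFBR1 forward: gcagagctgtgaagccttgagag
TGFBR1 reverse: atgccttcctgttgactgagttgc
TGFBR2 forward: taacctgctgcctgtgtgactttg
TGFBR2 reverse: tcccacctgcccactgttagc
The TGFBR1 forward primer spans an exon junction, and the reverse primer lies in coding exon 9 at chr9:101911554-101911577 on the minus strand. Both occur in 12 of 13 annotated TGFBR1 transcripts. The TGFBR2 forward primer lies in coding exon 4 at chr3:30713847-30713870 and the reverse primer spans a junction, and both occur in 3 of 6 annotated transcripts, whereas the FPKM summarise the whole gene. TGFBR1 lies on chromosome 9 from 101866320 to 101916474 and TGFBR2 on chromosome 3 from 30648093 to 30735634.

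BMPR1A, a type I BMP receptor, had the lowest estimate of the receptors, with 1.72 and 1.27 FPKM in the shLDHA libraries, against 6.65 and 3.38 FPKM in the shGFP libraries. The groups did not overlap, but the shGFP libraries were far apart and the log2 fold change of -1.29 (standard error 0.36) had an adjusted p of 0.058. The estimate was -0.82 without shGFP library 1 and -1.76 without shGFP library 2. BMPR1A passed as deposited (adjusted p = 0.034), with upper quartile scaling (0.046) and after rescaling to an equal total (0.022). BMPR2, the type II BMP receptor, had 1.70 and 0.68 FPKM in the shLDHA libraries, against 2.24 and 1.75 FPKM in the shGFP libraries, and its groups overlapped after scaling. ENG, endoglin, a coreceptor best known from endothelial cells, was the most abundant receptor with 142 and 94.9 FPKM in the shLDHA libraries, against 177 and 170 FPKM in the shGFP libraries, and its estimate of -0.24 did not pass (adjusted p = 0.248). Without shLDHA library 1, ENG gave -0.43 (adjusted p = 0.015), and without shLDHA library 2 it gave -0.056 (adjusted p = 0.404). The 4 endothelial markers summed to at most 0.12 FPKM in any library beside it. The activin and BMP type I receptors ACVR1 and ACVR1B gave -0.40 and -0.03 (adjusted p = 0.156 and 0.871). TGFBR3, the coreceptor betaglycan, and ACVR2A, an activin type II receptor, lay below the limit, TGFBR3 at 0.31 and 0.22 FPKM in the shLDHA libraries, against 1.24 and 0.39 FPKM in the shGFP libraries.

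**Figure D2:**
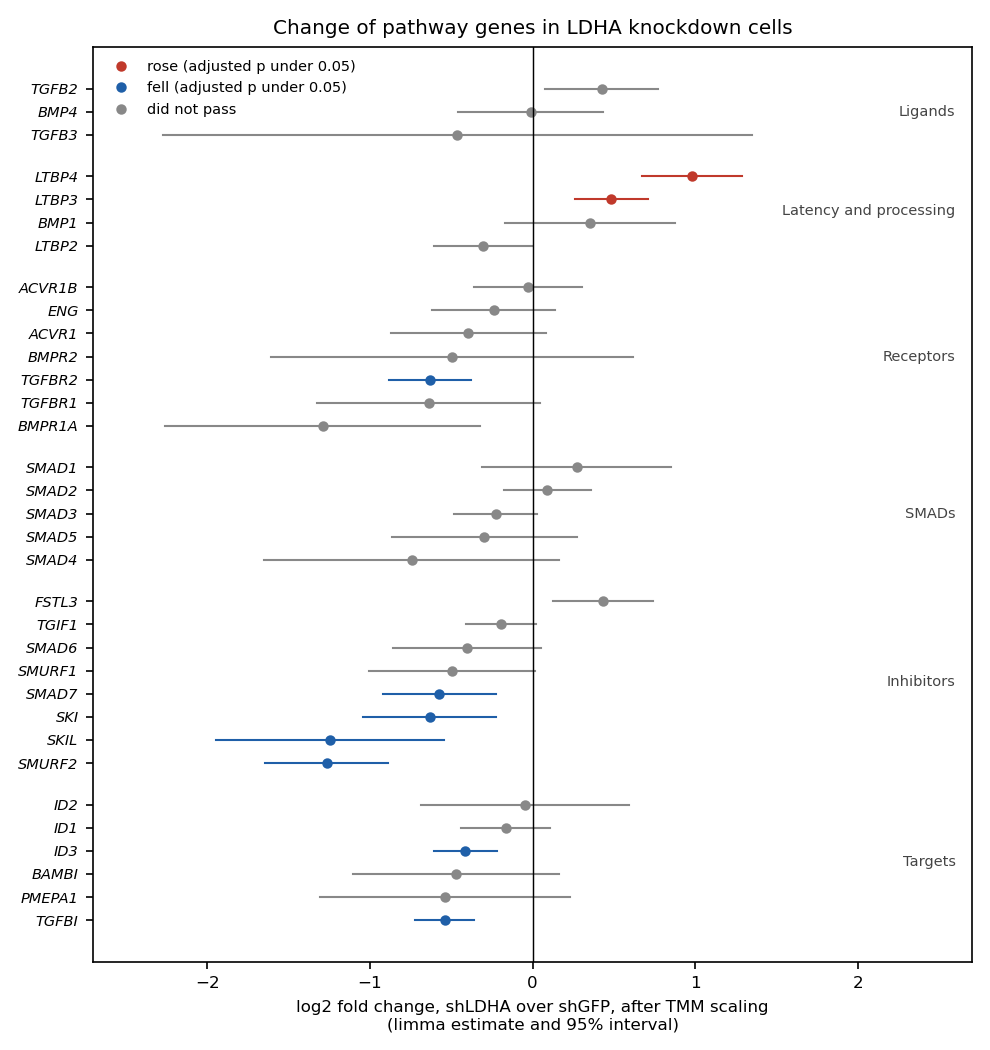
Log2 fold change of shLDHA over shGFP with its 95% interval (limma, after TMM scaling) for the 33 tested genes, grouped by role, with colour for genes that rose, fell or did not pass. Intervals of all 7 fallen genes lie below 0 and those of LTBP4 and LTBP3 above 0, while BMPR1A, TGFB2, FSTL3 and LTBP2 have intervals on 1 side of 0 and did not pass after adjustment over all rows.

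No SMAD that carries the signal passed the test. SMAD3, a receptor-activated SMAD of the TGF-beta branch, stood at 81.0 and 61.8 FPKM in the shLDHA libraries, against 109 and 101 FPKM in the shGFP libraries. Its estimate was -0.23 (standard error 0.10, adjusted p = 0.137), with -0.32 without shLDHA library 1 (adjusted p = 0.043) and -0.14 without shLDHA library 2 (adjusted p = 0.194). SMAD2, its close relative, had 11.5 and 10.4 FPKM in the shLDHA libraries, against 13.6 and 12.5 FPKM in the shGFP libraries. Deposited values of SMAD2 were lower in both shLDHA libraries, but after TMM scaling the estimate was 0.09 (95% interval -0.18 to 0.36). The ratio of SMAD3 to SMAD2 was 7.03 and 5.94 in the shLDHA libraries, against 8.01 and 8.10 in the shGFP libraries, so SMAD3 was lower relative to SMAD2 in both. SMAD4, the shared partner, had 5.71 and 2.78 FPKM in the shLDHA libraries, against 7.24 and 10.1 FPKM in the shGFP libraries. The groups of SMAD4 did not overlap, but libraries within each group were far apart, and the estimate of -0.74 (95% interval -1.65 to 0.16) did not pass (adjusted p = 0.159). SMAD1 and SMAD5 of the BMP branch gave 0.27 and -0.30 (adjusted p = 0.379 and 0.328), with 1.54 to 2.6 FPKM in the shLDHA libraries and 2.08 to 2.84 FPKM in the shGFP libraries.

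Of the 8 inhibitors tested, 4 fell (12.9% of all rows did), counting SKIL, which entered the test only through its shGFP libraries. After scaling, 7 of the 8 had both shLDHA libraries below both shGFP libraries (36.1% of all rows). SMURF2, a ubiquitin ligase that targets receptors and SMADs for degradation, stood at 2.02 and 1.82 FPKM in the shLDHA libraries, against 5.92 and 6.07 FPKM in the shGFP libraries. Its groups were well apart, and the scaled means were 2.16 ± 0.063 FPKM in LDHA knockdown cells and 5.32 ± 0.13 FPKM in control cells (SD, n = 2 each). SMURF2 fell with a log2 fold change of -1.26 (standard error 0.14, adjusted p = 0.010), which is 2.40-fold lower. SKIL, the corepressor SnoN that binds SMAD complexes, had 0.48 and 0.40 FPKM in the shLDHA libraries, against 1.51 and 1.43 FPKM in the shGFP libraries. SKIL passed the limit on low values only through its shGFP libraries, with an estimated 61 and 74 fragments in the shLDHA libraries and 220 and 219 in the shGFP libraries. Its log2 fold change was -1.24 (standard error 0.26, adjusted p = 0.031), on a scale that understates changes of low genes. SMURF1, the homologue of SMURF2, gave -0.50 (standard error 0.19) and did not pass (adjusted p = 0.113). The ratio of SMURF2 to SMURF1 was 1.31 and 1.41 in the shLDHA libraries, against 2.47 and 2.21 in the shGFP libraries, lower in both shLDHA libraries. Without shGFP library 1 or 2, SMURF2 gave -1.29 and -1.24 (adjusted p = 0.147 and 0.130) and SKIL -1.21 and -1.27 (adjusted p = 0.184 and 0.165). Without shLDHA library 1 or 2, SKIL gave -1.27 and -1.23 (adjusted p = 0.054 and 0.059).

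SKI, the corepressor related to SKIL, had 13.5 and 10.8 FPKM in the shLDHA libraries, against 27.2 and 20.9 FPKM in the shGFP libraries. The groups did not overlap, and SKI fell with a log2 fold change of -0.63 (standard error 0.15, adjusted p = 0.042), which is 1.55-fold lower. SKI lost the call without shLDHA library 1 or 2, with estimates of -0.69 and -0.58. It gave -0.45 and -0.81 without shGFP library 1 or 2, where every called row lost its call. SMAD7, the inhibitory SMAD induced by TGF-beta, stood at 5.71 and 4.25 FPKM in the shLDHA libraries, against 9.36 and 9.35 FPKM in the shGFP libraries. Both shLDHA libraries were below both shGFP libraries, and SMAD7 fell with a log2 fold change of -0.57 (standard error 0.13, adjusted p = 0.036). Without the limit on low values SMAD7 and SKI did not pass (adjusted p = 0.062 and 0.076). SMAD7 lost the call without shLDHA library 2, at -0.47. It gave -0.58 and -0.57 without shGFP library 1 or 2, where it lost the call as every called row did. SMAD6, the inhibitory SMAD of the BMP branch, and TGIF1, a homeobox corepressor, gave -0.40 and -0.19 (adjusted p = 0.137 and 0.132). FSTL3, a secreted protein that binds activin, was the 1 inhibitor whose shLDHA libraries lay above the shGFP libraries, at 115 and 121 FPKM, against 110 and 112 FPKM in the shGFP libraries, and it missed the threshold at 0.43 (standard error 0.11, adjusted p = 0.052). FSTL3 gave 0.57 and 0.29 without shLDHA library 1 or 2. With upper quartile scaling it gave 0.31 (adjusted p = 0.097), and as deposited 0.089 (adjusted p = 0.540). After rescaling to an equal total per library FSTL3 gave -0.090 (adjusted p = 0.562). FST, the other activin-binding gene, had at most 0.13 FPKM in any library.

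The stretch of 250 bases before the transcription start is printed for SMURF2 and SKIL, the inhibitors with the largest changes, from RefSeq on GRCh38.p14 in the gene's direction. Capitals mark matches to 3 motifs known to be bound by SMAD proteins, none of which contains another. These are CAGAC, which reads GTCTG on the opposite strand, then the GC-rich motif GGCGCC and the palindrome known as GTCTAGAC, both of which read the same on either strand.
SMURF2: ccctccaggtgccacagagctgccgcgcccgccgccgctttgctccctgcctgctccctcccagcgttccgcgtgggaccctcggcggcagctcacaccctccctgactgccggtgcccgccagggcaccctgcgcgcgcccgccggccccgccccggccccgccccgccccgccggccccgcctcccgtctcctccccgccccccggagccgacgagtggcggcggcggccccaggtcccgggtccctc
SKIL: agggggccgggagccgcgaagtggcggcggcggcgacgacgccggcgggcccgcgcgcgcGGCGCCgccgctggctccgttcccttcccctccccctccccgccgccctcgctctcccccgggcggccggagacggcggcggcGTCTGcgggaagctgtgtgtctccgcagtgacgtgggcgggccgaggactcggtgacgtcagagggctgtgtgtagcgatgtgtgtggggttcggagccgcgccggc
The SMURF2 window is chr17:64662308-64662557 on the minus strand and holds none of the 3 motifs, and the SKIL window is chr3:170357465-170357714 on the plus strand and holds 1 CAGAC at position -107 (as GTCTG) and 1 GGCGCC. In 35116 windows of all genes, CAGAC occurred in 38.0%, GGCGCC in 16.4% and GTCTAGAC in 0.182%. Among 76 windows of 38 listed genes these shares were 39.5%, 25% and 1.32%. The windows of the listed genes had a median GC content of 63.4%, against 58.0% over all windows. A match describes letters only and is not a bound site.

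Of the 6 target genes, all with estimates below 0, TGFBI and ID3 fell (2 of 6, where 12.9% of all rows fell). TGFBI, an extracellular matrix protein named for its induction by TGF-beta, stood at 64.3 and 54.5 FPKM in the shLDHA libraries, against 109.7 and 108.8 FPKM in the shGFP libraries. The groups did not overlap, and the scaled means were 66.7 ± 0.91 FPKM in LDHA knockdown cells and 97.0 ± 0.046 FPKM in control cells (SD, n = 2 each). TGFBI fell with a log2 fold change of -0.54 (standard error 0.07, adjusted p = 0.012), which is 1.45-fold lower. ID3, an inhibitor of bHLH factors and a BMP target, had 32.8 and 27.6 FPKM in the shLDHA libraries, against 51.0 and 50.8 FPKM in the shGFP libraries. Its log2 fold change was -0.41 (standard error 0.07, adjusted p = 0.021). Without shGFP library 1 or 2, TGFBI gave -0.54 both times (adjusted p = 0.162 and 0.143) and ID3 gave -0.42 and -0.41 (adjusted p = 0.188 and 0.178). ID1, of the same family, had the highest mean deposited FPKM of the listed genes in the shGFP libraries. It stood at 146 and 107 FPKM in the shLDHA libraries, against 177 and 179 FPKM in the shGFP libraries. ID1 gave -0.17 (adjusted p = 0.267), with -0.28 without shLDHA library 1 (adjusted p = 0.025) and -0.050 without shLDHA library 2 (adjusted p = 0.414). The ratio of ID1 to ID3 was 4.45 and 3.89 in the shLDHA libraries, against 3.47 and 3.52 in the shGFP libraries. ID2 gave -0.05 with overlapping groups, and without shGFP library 2 it gave 0.28. BAMBI, a decoy receptor induced by the pathway, gave -0.47 (adjusted p = 0.191). PMEPA1, a membrane inhibitor of TGF-beta signalling, gave -0.54 (adjusted p = 0.211), with 14.8 and 7.30 FPKM in the shLDHA libraries, against 18.8 and 19.7 FPKM in the shGFP libraries. PMEPA1 gave -0.95 without shLDHA library 1 (adjusted p = 0.012) and -0.14 without shLDHA library 2 (adjusted p = 0.297).

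The same stretch is printed for the 2 fallen targets, which RefSeq lists with 1 start each, in the same notation.
TGFBI: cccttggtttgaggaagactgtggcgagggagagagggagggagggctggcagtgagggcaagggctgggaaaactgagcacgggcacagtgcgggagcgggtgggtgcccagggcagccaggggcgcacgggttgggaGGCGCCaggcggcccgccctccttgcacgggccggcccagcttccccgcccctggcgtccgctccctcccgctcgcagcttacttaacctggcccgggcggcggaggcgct
ID3: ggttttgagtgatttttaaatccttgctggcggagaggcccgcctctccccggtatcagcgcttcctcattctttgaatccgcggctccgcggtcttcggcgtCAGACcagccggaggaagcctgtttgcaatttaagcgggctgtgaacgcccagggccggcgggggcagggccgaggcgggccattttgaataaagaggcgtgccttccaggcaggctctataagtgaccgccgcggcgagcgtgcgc
The TGFBI window is chr5:136028738-136028987 on the plus strand and holds 1 GGCGCC. The ID3 window is chr1:23559502-23559751 on the minus strand and holds 1 CAGAC at position -147. With SKIL and SMURF2, the 4 windows range in GC content from 62.0% for ID3 to 82.0% for SMURF2.

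Scaling moved several of these genes across the threshold. As deposited 0 of the 33 genes rose and 11 fell (6.8% and 23.4% of all rows). At an unadjusted limma p under 0.05 there were 21 members, and 6175 of all 13291 rows. With upper quartile scaling 2 rose and 9 fell (14.3% and 18.5% of all rows). After rescaling to an equal total per library 0 rose and 20 fell (4.57% and 34% of all rows). There, 23 members and 6858 of all rows were at an unadjusted limma p under 0.05, and the median of all rows was -0.50. TGFBR2, SMURF2, SKIL, SKI, SMAD7, TGFBI and ID3 fell under TMM, as deposited, with upper quartile scaling and with equal totals, whereas LTBP4 and LTBP3 rose under TMM and upper quartile scaling. The median of all rows was -0.0040 under TMM, -0.12 with upper quartile scaling, -0.33 as deposited and -0.50 with equal totals. These alternatives thus move the rows as a whole downward, which favours falls over rises. They cannot test whether a fall under TMM holds.

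**Figure D3:**
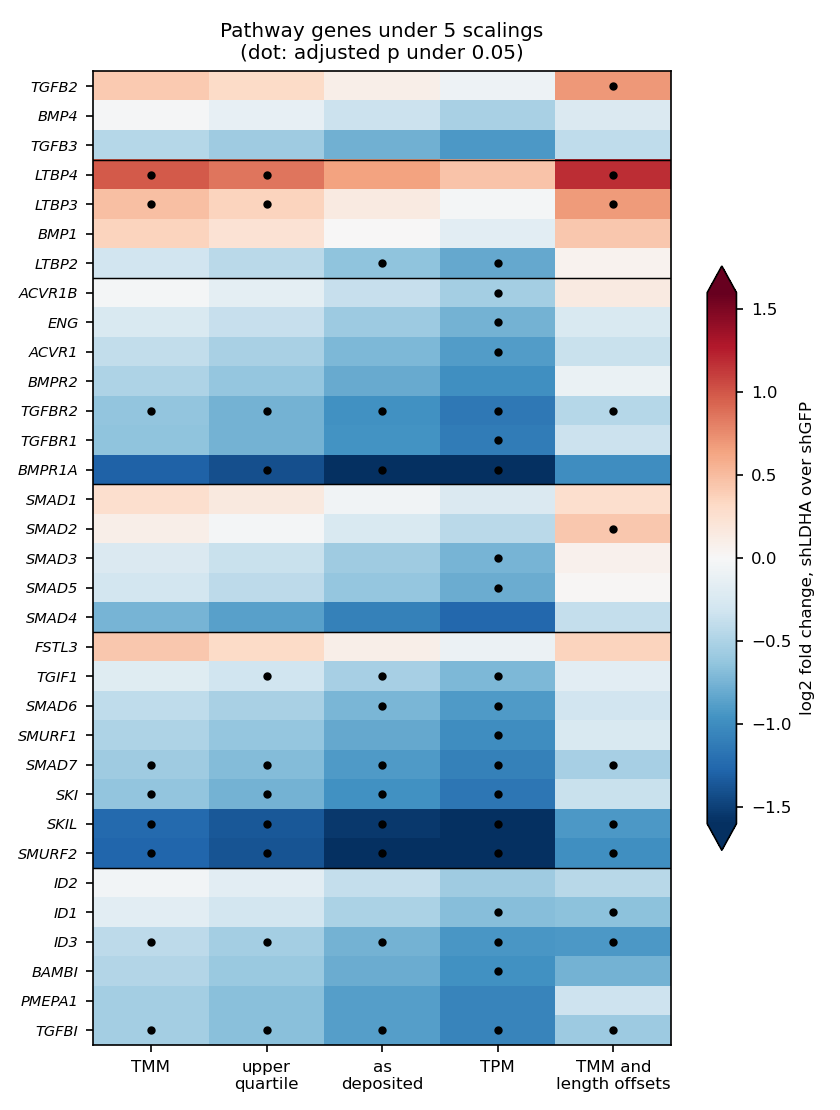
Log2 fold change of shLDHA over shGFP (colour scale) of the 33 tested genes, grouped by role, under TMM, upper quartile scaling, values as deposited, an equal total per library (TPM) and TMM with length offsets; a dot marks an adjusted p under 0.05. The 7 fallen genes carry a dot in every column except SKI, which has none with length offsets, and the estimates of SMAD1, SMAD2, TGFB2, BMP1, FSTL3 and LTBP3, above 0 under TMM, are below 0 with equal totals.

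The change of a gene varied with the length of its transcript. Across the 11849 tested rows with an annotated transcript, Spearman's rho between log2 fold change and length was -0.41, a description over genes of the same 4 libraries. The median log2 fold change was 0.55 in the shortest decile of length and -0.43 in the longest. The pathway genes are long, with a median of 4531 bases against 3132 bases over all rows. Of the 33, 18 lie in the 3 longest deciles, where 19.6% of all rows fell and 6.3% rose. The median log2 fold change of all rows in these 3 deciles was -0.34. After offsets that remove this trend within each library, 4 members rose (LTBP4, LTBP3, TGFB2 and SMAD2) and 7 fell (TGFBR2, SMURF2, SKIL, SMAD7, TGFBI, ID1 and ID3), where 15.6% of all rows with a length rose and 13.1% fell. The median of the 33 genes was then -0.31. SKI gave -0.35 (adjusted p = 0.130) and ID1 -0.66 (adjusted p = 0.032) with the offsets. The annotated SMAD2 transcript of 34626 bases lies beyond nearly all others, so its value with offsets, 0.43, rests on the end of the curve.

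**Figure D4:**
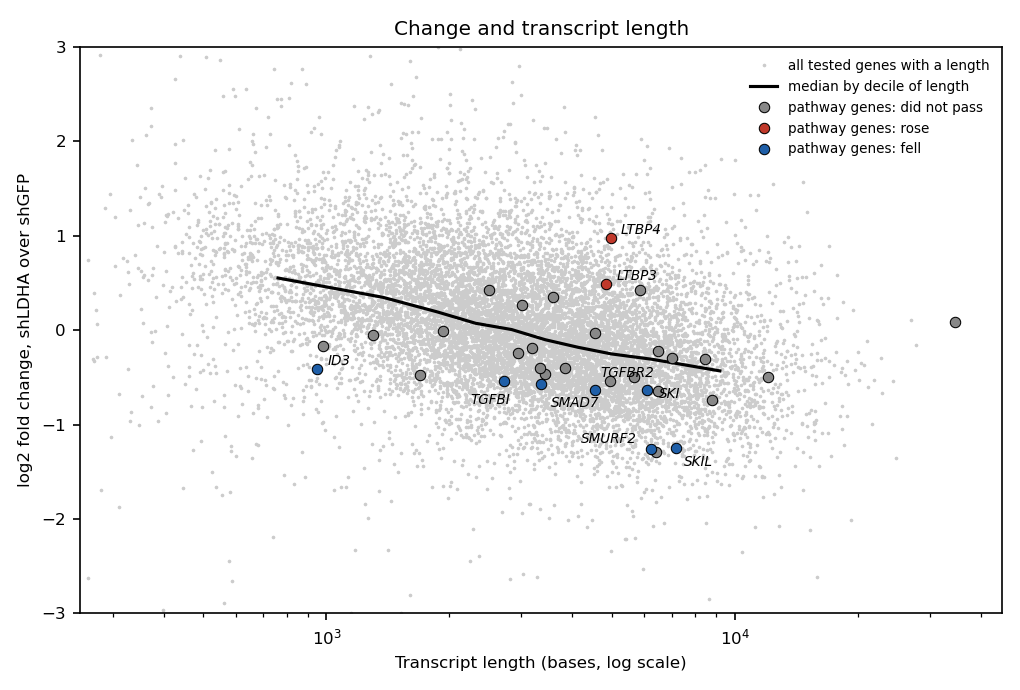
Log2 fold change of shLDHA over shGFP after TMM scaling against the length of the annotated transcript (bases, log axis) for all tested genes with a length (grey dots), with the median of each decile of length (black line) and the 33 pathway genes (large points, coloured by call); 108 genes beyond 3 in either direction or shorter than 250 bases are not drawn. The medians decline along the length axis to -0.43 in the longest decile, SMURF2 and SKIL lie below the line at lengths of 6240 and 7155 bases, and LTBP4 lies above it at 4960 bases.

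A wider list of 100 further pathway genes gave 63 tested genes, of which 11 rose, 17 fell and 35 did not pass, with a median of -0.24 (18.1% of all rows rose and 12.9% fell). THBS1, thrombospondin 1, a matrix protein that activates latent TGF-beta, stood at 91.6 and 73.6 FPKM in the shLDHA libraries, against 224.8 and 217 FPKM in the shGFP libraries, with a log2 fold change of -1.08 (standard error 0.07, adjusted p = 0.0076). ITGAV, the integrin alpha-v subunit that takes part in the same activation, had 1.54 and 1.44 FPKM in the shLDHA libraries, against 4.15 and 4.23 FPKM in the shGFP libraries (-1.10, adjusted p = 0.016). Both groups were well apart for these genes of ligand activation. Among 13 SMADs and cofactors tested, 1 rose and 6 fell, including IPO7, an importin (-0.86, adjusted p = 0.011), and SP1, a transcription factor that acts with SMADs (-0.85, adjusted p = 0.014). Of 20 genes grouped as inhibitors, 5 rose and 3 fell. This group also holds deubiquitinases such as USP11, so the counts are not of inhibitors alone. BGN, biglycan, a proteoglycan that binds TGF-beta (1.19, adjusted p = 0.011), and VASN, vasorin, a TGF-beta-binding membrane protein (0.80, adjusted p = 0.019), were higher. USP11 was also higher (0.56, adjusted p = 0.013), and FSTL1, follistatin-like 1 (-0.66, adjusted p = 0.016), was lower. Among 16 targets, 5 rose and 3 fell. JUNB, an AP-1 subunit, had 34.6 and 28.4 FPKM in the shLDHA libraries, against 19.3 and 20.0 FPKM in the shGFP libraries (1.01, adjusted p = 0.0077). MMP2, a matrix metalloproteinase, gave 0.80 (adjusted p = 0.011) and CDKN1A, the cell cycle inhibitor p21, gave 0.50 (adjusted p = 0.014). With equal totals 0 of the 63 genes rose and 38 fell (4.57% and 34% of all rows). CDKN1A then gave -0.020, USP11 0.039 and JUNB 0.49 (adjusted p = 0.918, 0.836 and 0.063). ATOH8, a BMP-responsive bHLH factor, was lower at -1.41 (adjusted p = 0.018). Among the named targets of both lists, TGFBI, ID3 and ATOH8 were lower and JUNB, MMP2 and CDKN1A higher in LDHA knockdown cells. Like every other called row, the 12 genes named here lost the call without shGFP library 1 or 2, so this loss does not set them apart. Without shGFP library 1 the estimates of THBS1 and JUNB were -1.07 and 0.98.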

How the data were processed

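RNA was sequenced from 2 shLDHA and 2 shGFP libraries of B-CPAP cells, grouped by their titles. The deposited table is labelled as counts, but its values are FPKM with decimals that the authors had scaled by length (the tool is not stated in the sources used here). The methods name Trim Galore, STAR on hg19, HTSeq and edgeR's TMM, whereas HISAT2 and hg38 stand beside Trim Galore in the processing notes of the submitters, so the build behind the table is not known. Depth was estimated from the steps of low FPKM (per library, 73.4% to 83.7% of low values came within 0.15 of whole fragments), so fragment numbers are approximate.

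Of 59108 rows, 224 without a name (0.440% and 3.53% of the FPKM total in the shLDHA libraries, 0.431% and 0.361% in the shGFP libraries) and 27 with a date in place of a symbol were dropped, and rows with at least 0.5 FPKM in 2 libraries were kept. FPKM were scaled by an unweighted trimmed mean of M values (30% of M and 5% of A trimmed per tail), and limma (version 3.58.1 in R 4.3.3) was run on log2(FPKM + 0.1) with a variance trend and Benjamini-Hochberg adjustment over all 13291 rows, two-sided, at an adjusted p under 0.05. Fold changes on this scale understate low genes. A count test could not run on FPKM. An exact permutation test of 2 against 2 libraries goes no lower than p = 0.333 and was not used. In simulated data for this comparison with 13291 genes, 100 genes were changed by 1 on the log2 scale, 100 by 2 and 13091 not at all. Of these, 44%, 79% and 0.107% were called. In the data themselves 31% of rows were called, so these rates need not hold there.

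The members and lists were chosen with earlier results of these data known. The genes named are LDHA, all members, and of the wider list up to 6 per direction with the lowest p. Alternatives were other scalings, pseudocounts of 0.5 and 1, other limits, no variance trend, length offsets, a block on library number, summed rows and each library left out. Coordinates are from GENCODE version 44 on GRCh37 unless RefSeq is named.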

Additional observations from a re-analysis of the deposited data

How the results depend on the processing

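The precision rests on 2 libraries per group and 2 residual degrees of freedom per gene. Without shGFP library 1 or 2 the spread comes from the shLDHA pair, whose median absolute log2 difference was 0.217 against 0.125 in the shGFP pair, and 0 rows passed with limma (3419 and 3696 at an unadjusted p under 0.05). Leaving out 1 library gave 0 to 3 members that rose and 0 to 9 that fell, 0 to 12 and 0 to 18 of the wider list, 0 to 2729 and 0 to 1788 of all rows, and a log2 fold change of LDHA from -2.52 to -2.38. TGFBR2, SMURF2 and TGFBI kept their calls under all alternatives that use all 4 libraries. As deposited, 0 members rose and 11 fell, 3 and 29 of the wider list, and 904 and 3114 of all rows, so that 22.5% of calls were higher, against 58.5% after TMM scaling. With equal totals these counts were 0 and 20, 0 and 38, and 608 and 4518. Without the limit on low values 4 members, 9 of the wider list and 997 of all rows fell. Without a variance trend 1 member rose and 4 fell, where 1736 and 1529 of all rows did. Length offsets gave 4 members that rose, where 15.6% of all rows with a length did. Calls lost were SMAD7, SKI and SKIL without the limit (adjusted p = 0.062, 0.076 and 0.071) and SMAD7, SKI, LTBP3 and ID3 without the trend (0.052, 0.074, 0.055 and 0.058). The library numbers are shared between the groups only as numbers (correlation of deviations 0.118 over 2 pairs), and a replicate block gave 2 members that rose and 6 that fell, 10 and 10 of the wider list, and 2209 and 1233 of all rows: SMAD7 and SKIL lost the call (0.058 and 0.061) and BMPR1A passed (0.038). The sign changed with equal totals for TGFB2 (-0.085), LTBP3 (-0.036), BMP1 (-0.17), SMAD1 (-0.23), SMAD2 (-0.43), FSTL3 (-0.090) and CDKN1A (-0.020), as deposited for SMAD1 (-0.058) and SMAD2 (-0.25), with upper quartile scaling for SMAD2 (-0.033), and with length offsets for LTBP2 (0.053), ACVR1B (0.14), SMAD3 (0.073) and SMAD5 (0.022). Leaving out 1 library gave estimates on both sides of 0 for TGFB3 (-1.27 to 0.35), BMP4 (-0.13 to 0.10), ACVR1B (-0.11 to 0.05), BMPR2 (-1.01 to 0.016) and ID2 (-0.38 to 0.28). The causes were not tested.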
